A study of Mus musculus with 191 samples.

Results

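The genes described are 43 genes of the extracellular matrix, chosen by symbol and grouped by the role of their product: fibrillar collagens, basement membrane, type VI and XIV collagens, elastic fibres, crosslinking enzymes, small leucine-rich proteoglycans, and matricellular and adhesive glycoproteins. A gene was taken as the probe set that the array annotation maps to that symbol alone, and as the one of highest mean where there were several. Of the 43 genes, 41 had such a probe set among 18194 genes on the array; no value was used here for Fbn1 or Loxl2. Of these, 39 were among the 13524 genes tested, which needed at least 3 arrays above the median of all values; Nid2 and Vcan did not pass.

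Lung RNA of female B6C3F1 mice was hybridised to Affymetrix Mouse 430_2 arrays, 1 mouse per array, after 13 weeks of exposure to 1 of 26 chemicals or to a vehicle. The study's title gives its purpose as finding transcriptional biomarkers of lung tumours in female mice. B6C3F1 is a hybrid cross of 2 inbred mouse strains. The mice were 5 weeks old at the start and 18 weeks old at the end, gavage and inhalation ran 5 days a week and feeding 7 days a week, and 133 arrays of 34 exposed groups stood beside 58 arrays of 14 vehicle sets, with 3 to 5 arrays each.

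The 4 array batches were read from the code at the end of each array's title, and every exposed group was set against all vehicle sets of its own vehicle and batch. By gavage in corn oil, coumarin (COUM, 200 mg/kg), 1,2-Dibromoethane (DBET, 62 mg/kg) and benzene (BENZ, 100 mg/kg) had the control sets CCO2 and CCO3. Iodoform (IODO, 93 mg/kg) and trichlorofluoromethane (TCFM, 3925 mg/kg) had CCO4, while 1,4-Dichlorobenzene (DCBZ, 600 mg/kg) and 1,2,3-Trichloropropane (TCPN, 60 mg/kg) had CCO5 and CCO6. The last corn oil group, 2,3-Benzofuran (BFUR, 240 mg/kg), had a set of 3 arrays. By gavage in distilled water, N-Methylolacrylamide (MACR, 50 mg/kg) and 2-Chloromethylpyridine hydrochloride (CMPH, 250 mg/kg) had WCO1.

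In feed, 2,2-Bis(bromomethyl)-1,3-propanediol (BBMP, 1250 ppm), diazinon (DIAZ, 200 ppm), malathion (MALA, 14800 ppm in the treatment record and 16000 ppm in the titles) and 4-Nitroanthranilic acid (NAAC, 10000 ppm) had the rodent chow set FCO2. The set FCO1 served 1-Amino-2,4-dibromoanthraquinone (ABDQ, 20000 ppm) and Tris(2,3-dibromopropyl)phosphate (TDPP, 1000 ppm). A set of 3 chow arrays served 1,5-Naphthalenediamine (NAPD, 2000 ppm), N-(1-naphthyl)ethylenediamine dihydrochloride (NEDD, 2000 ppm) and pentachloronitrobenzene (PCNB, 8187 ppm). By inhalation, methylene chloride (MECL) at 100, 500, 2000, 3000 and 4000 ppm, naphthalene (NPTH) at 0.5, 3, 10, 20 and 30 ppm, ethylene oxide (ETOX, 100 ppm), propylene glycol mono-t-butyl ether (PGBE, 1200 ppm) and vanadium pentoxide (VANP, 2 mg/m3) shared the air sets ACO3, ACO4 and ACO5. Tetrafluoroethylene (TFEL, 1250 ppm) and Tetrafluororethane (TFEA, 50000 ppm) shared the air set ACO1.

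The lung is held open and elastic by its matrix. Fibrillar collagens give it strength, a microfibril scaffold loaded with elastin gives it recoil, lysyl oxidases crosslink both, and sheets of type IV collagen and laminin lie under the epithelium and the endothelium. Fibroblasts and smooth muscle cells make most of this matrix, small proteoglycans such as decorin space the collagen fibrils, and glycoproteins such as tenascin C and fibronectin are deposited when tissue is remodelled. In whole lung RNA, fewer cells that make a transcript and less transcript per cell cannot be told apart. Of the lists of epithelial markers, 7 of 8 for alveolar type 2 cells, 6 of 6 for alveolar type 1 cells, 6 of 6 for club cells and 6 of 6 for ciliated cells passed the filter. All 10 cardiac muscle markers passed too, at mean levels from 0.560 to 3.254 over the air lungs of the largest batch.

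In 5 instances members lie next to each other in the genome, by RefSeq's annotation of GRCm38.p6. Col6a1 and Col6a2 on chromosome 10, Dcn and Lum on chromosome 10, Col3a1 and Col5a2 on chromosome 1, and Col4a1 and Col4a2 on chromosome 8 have no protein-coding gene between them, while Omd lies between Aspn and Ogn on chromosome 13. RefSeq's promoter table held 26 of the 43 members. The 150 bases before the start are shown for 6 of them, because these belong to neighbouring genes or to the collagens that moved together. Capitals mark the letters CCAAT, known from many promoters, on either strand. They also mark GGGCGG, the core of a GC box, and the letters TATAAA of a TATA box.
Col4a1, chr8:11312827-11312976, minus strand: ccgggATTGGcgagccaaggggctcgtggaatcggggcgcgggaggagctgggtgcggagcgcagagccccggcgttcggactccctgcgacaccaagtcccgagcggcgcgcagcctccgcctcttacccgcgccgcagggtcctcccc
Col4a2, chr8:11312655-11312804, plus strand: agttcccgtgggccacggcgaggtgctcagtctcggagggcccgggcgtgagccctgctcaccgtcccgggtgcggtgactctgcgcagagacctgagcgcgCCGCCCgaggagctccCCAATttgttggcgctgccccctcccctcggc
Col1a2, chr6:4505468-4505617, plus strand: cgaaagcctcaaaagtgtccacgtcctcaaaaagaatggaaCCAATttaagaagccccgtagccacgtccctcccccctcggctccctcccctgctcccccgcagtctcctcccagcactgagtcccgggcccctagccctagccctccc
Col3a1, chr1:45311388-45311537, plus strand: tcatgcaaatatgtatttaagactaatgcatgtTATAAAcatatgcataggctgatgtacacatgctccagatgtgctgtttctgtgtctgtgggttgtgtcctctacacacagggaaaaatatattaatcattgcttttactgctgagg
Ogn, chr13:49607865-49608014, plus strand: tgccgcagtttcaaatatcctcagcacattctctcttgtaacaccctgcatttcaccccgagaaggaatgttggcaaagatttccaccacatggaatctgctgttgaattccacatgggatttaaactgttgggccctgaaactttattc
Aspn, chr13:49544293-49544442, plus strand: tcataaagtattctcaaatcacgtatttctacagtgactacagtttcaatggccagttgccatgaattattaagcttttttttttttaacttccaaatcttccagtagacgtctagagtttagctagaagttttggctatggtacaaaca

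The windows of Col4a1 and Col4a2 lie on opposite strands with 22 bases between them. They are placed by the starts in RefSeq's promoter table, and the annotated gene of Col4a1 reaches into its own window. The annotated genes overlap, so the Col4a2 window lies inside the Col4a1 gene and the Col4a1 window inside the Col4a2 gene. The 6 windows differ in base composition: G and C made up 74.7% of the Col4a1 window, 72.7% of that of Col4a2 and 62.7% of that of Col1a2, against 37.3% for Col3a1, 44.0% for Ogn and 33.3% for Aspn. Over all 26 members the median was 61.4%, and over all 32851 windows it was 54.0%. CCAAT on either strand was found in 26.9% of the members' windows and 24.5% of all windows, GGGCGG in 34.6% and 28.6%, and TATAAA in 7.7% and 7.6%. These shares describe the letters in the windows and name no factor or site.

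Values were deposited on a logarithmic scale, read here as log2, with each array centred near 0. A level below is such a value of 1 probe set, and levels of different genes are not comparable. A difference is exposed minus control in log2 units with its standard error (SE), from 1 limma model over all 191 arrays. A gene was called, and is said to have risen or fallen, where it passed limma's test with Benjamini-Hochberg adjustment at 0.05 against each of its control sets, with 1 sign throughout. The adjusted p given is the largest of these. Groups had 1, 2 or 3 control sets, so the rule was stricter for some groups than for others.

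Over the 34 exposed groups the 39 members gave 56 calls, 21 rises and 35 falls, in 17 groups. Of all tests of members 4.22% were called, against 2.58% of the tests of all genes. The share that rose was 1.58% for members and 1.86% for all genes, and the share that fell was 2.64% against 0.722%. At least 1 call was made for 29 members, or 74.4%, against 55.6% of all genes. The members were chosen with earlier results of these data known, so these shares are no test of the set. Eln and Spon2 gave 7 of the falls each, in part against shared control lungs. The 10 members never called were Col5a1, Col4a1, Nid1, Col6a3, Fbln2, Mfap4, Lox, Bgn, Spon1 and Sparc. The limma fit called no member in the other 17 groups, in which between 0 and 16 members had an unadjusted p under 0.05 against the mean of the control sets. Adjusted in 1 test against that mean, MECL-100 and MECL-500 each had 4 rises and 1 fall, TCPN 4 rises and NPTH-0.5 1 rise. The share of all genes called in those groups was 9.37% in TCPN, 1.86% in BFUR, 1.43% in DCBZ, 0.917% in ABDQ, 0.370% in NPTH-0.5, 0.355% in NPTH-3, 0.148% in MECL-100, 0.0961% in TFEA, 0.0887% in NEDD, 0.0296% in BENZ, 0.0148% in NAAC, 0.00739% in each of PCNB and TDPP, and 0 in CMPH, DIAZ, ETOX and MECL-500.

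**Figure D1:**
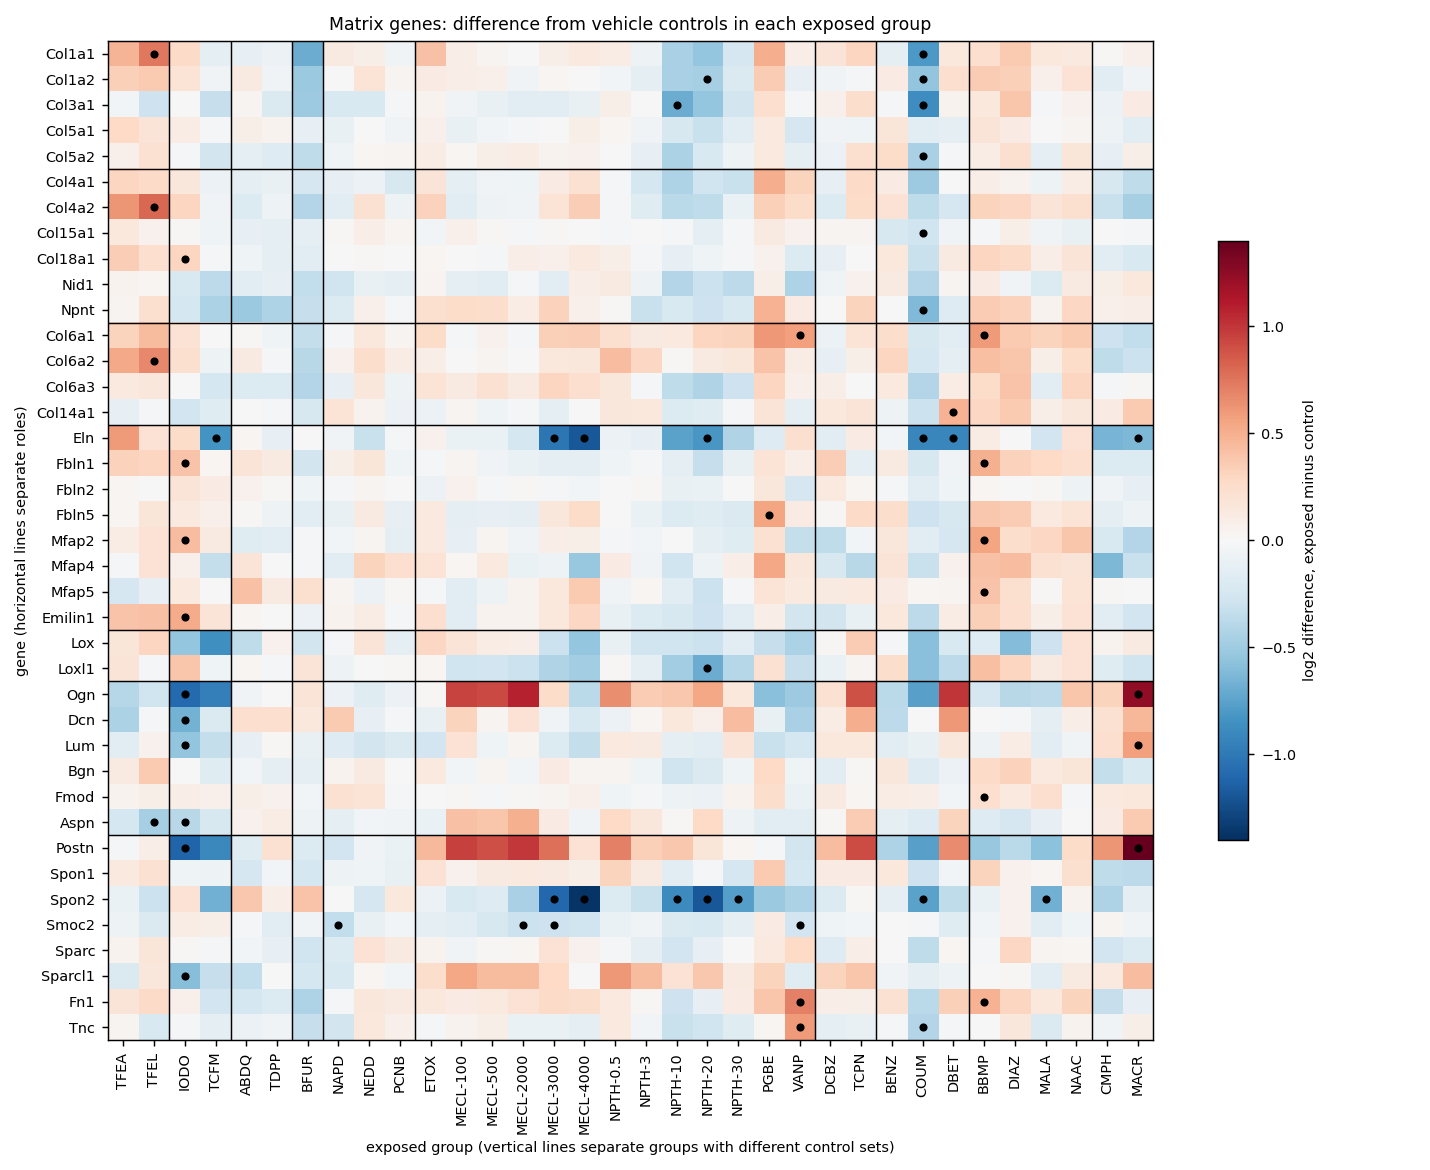
Log2 difference, exposed minus control, of the 39 tested matrix genes (rows, by role) in the 34 exposed groups (columns, by control sets); dots mark the 56 calls. Eln and Spon2 each carry 7 dots, all on falls, and the COUM column carries 9 dots, all on falls.

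Under the rule of a call against every control set, coumarin and iodoform gave the most calls. That rule asks more of groups with 3 control sets than of groups with 1. In 1 test against the mean of the sets, COUM had 19 falls and PGBE 11 rises and 1 fall. NPTH-10 and NPTH-20 then had 10 falls each, VANP 4 rises and 5 falls, and IODO 4 rises and 6 falls as before. The counts below follow the rule of every set. In the COUM group 9 members fell and 0 rose, while 1.63% of all genes fell and 4.06% rose. In the IODO group 4 members rose and 6 fell, beside 15.6% of all genes that rose and 11.9% that fell, so its count of members was near the background. In the BBMP group 6 members rose and 10.4% of all genes did. MACR had 3 rises (4.19% of all genes) and 1 fall (1.04%), VANP 3 rises (3.02%) and 1 fall (1.31%), and TFEL 3 rises (5.65%) and 1 fall (1.48%). After quantile normalization there were 5 rises and 5 falls in MACR, 3 and 2 in VANP, and 6 and 1 in TFEL. For these counts, and for those against the mean of the sets, no share of all genes under the same setting is given. NPTH had 2 falls at 10 ppm (0.133% of all genes), 4 at 20 ppm (0.998%) and 1 at 30 ppm (0.466%). MECL had 1 fall at 2000 ppm (0.00739% of all genes), 3 at 3000 ppm (0.303%) and 2 at 4000 ppm (0.251%). DBET had 1 rise (2.31%) and 1 fall (0.362%), PGBE 1 rise (0.614%), TCFM 1 fall (0.296%), MALA 1 fall (0.717%) and NAPD 1 fall (0.0592%).

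The fibrillar collagens fell together in coumarin-exposed lungs. Col1a1 and Col1a2, which encode the chains of type I collagen, and Col3a1 and Col5a2, for chains of types III and V, were all lower, and these were 4 of the 5 fibrillar members tested. The median difference of the 5 was -0.55, that of all 39 members -0.31, and that of all genes tested -0.06. Of the 39 members, 37 lay below 0 in this group. A joint fall was not particular to coumarin. All 5 fibrillar members also lay below 0 in BFUR (median -0.51), NPTH-20 (-0.47), NPTH-10 (-0.45), NPTH-30 (-0.20) and TCFM lungs (-0.12), with 0 or 1 of them called.

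Levels of Col3a1 were 3.593, 3.791, 2.679 and 2.591 in the 4 COUM lungs, against 3.474 at the lowest, 3.997 at the median and 4.514 at the highest in 8 corn oil lungs. COUM replicates 3 and 4 were below every control, and the other 2 lay among the controls. Its difference was -0.87 ± 0.15 (adjusted p = 3.00e-04), a level 0.549 times that of controls.

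Levels of Col1a1 were 0.807, 1.237, 0.846 and 0.619 in COUM lungs, against 1.354, 1.667 and 1.955 at the lowest, median and highest of the corn oil lungs. All 4 exposed lungs were below all 8 controls, and the difference was -0.80 ± 0.16 (adjusted p = 0.00208). Its other probe set gave -0.44 ± 0.09. Col1a2 averaged 2.838 ± 0.397 in COUM lungs and 3.391 ± 0.337 in corn oil lungs (SD, n = 4 and 8), a difference of -0.55 ± 0.13 (adjusted p = 0.0211), and the groups overlapped. Col5a2 averaged 1.587 ± 0.438 and 2.044 ± 0.175 in the same groups, with a difference of -0.46 ± 0.11 (adjusted p = 0.0213). The COUM lungs with replicate numbers 3 and 4 were the lowest for Col1a2, Col3a1, Col5a2, Npnt and Eln.

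Leaving out any 1 of the 12 arrays kept the calls of Col1a1 (adjusted p at most 0.026) and Col3a1 (at most 0.0257). Col1a2 lost its call without COUM replicate 3 or 4 or CCO3 replicate 1 or 2, and Col5a2 without COUM replicate 3 or 4 or CCO3 replicate 2, with differences then between -0.49 and -0.41 for Col1a2 and between -0.41 and -0.33 for Col5a2. With the COUM and corn oil arrays alone in the fit, limma called 0 members, with 19 at an unadjusted p under 0.05. Set against the mean of the 2 corn oil sets in 1 test, 19 members fell and 0 rose. The share of all genes in that test is not given here.

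**Figure D2:**
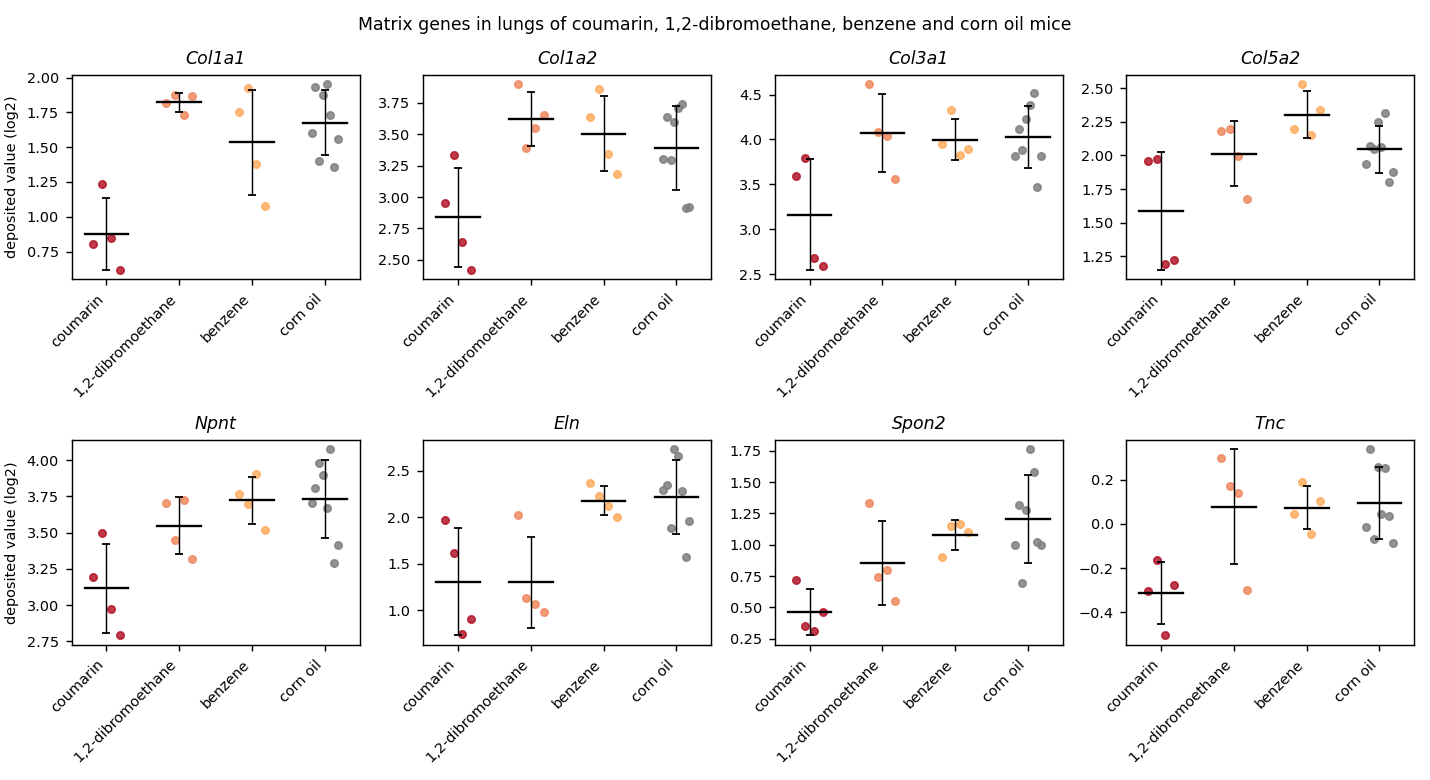
Deposited log2 value of 8 matrix genes in single lungs (dots), with group means (horizontal lines) and SD (vertical bars), for coumarin, 1,2-dibromoethane and benzene (4 lungs each) and the 8 corn oil lungs of CCO2 and CCO3. Every coumarin lung lies below all corn oil lungs for Col1a1 and Tnc, and elastin is also low in 3 of the 4 1,2-dibromoethane lungs.

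The other fibrillar calls were few. Col1a1 rose in tetrafluoroethylene lungs, where levels were 1.959, 2.211, 1.980 and 1.905, against 1.241, 1.350, 1.208 and 1.311 in the ACO1 air lungs. The groups did not overlap, and the difference was 0.74 ± 0.18 (adjusted p = 0.0041), which held without each array in turn (adjusted p at most 0.0317). The other probe set of Col1a1 gave 0.16 ± 0.10 there, and the call was lost with the RNA quality covariate described below. In naphthalene lungs Col3a1 fell at 10 ppm (-0.69 ± 0.14, adjusted p = 0.0198), without overlap, and Col1a2 at 20 ppm (-0.47 ± 0.12, adjusted p = 0.0427), with overlap. Col3a1 lost that call without ACO3 replicate 1, 2 or 4 or NPTH-10 replicate 2 or 4 (-0.69 to -0.56). Col1a2 lost its call without any of 11 of 18 arrays (-0.48 to -0.43), among them ACO3 replicate 1 and NPTH-20 replicates 1, 3 and 4. In 2,3-Benzofuran lungs Col1a1 was 0.269, 1.158 and 0.984, against 1.700, 1.527 and 1.267 in its corn oil set, a difference of -0.69 ± 0.21 that narrowly missed the call (adjusted p = 0.0502).

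Basement membrane genes gave 4 calls. Col4a2, for a chain of type IV collagen, the network-forming collagen of basement membranes, rose in TFEL lungs to 4.360, 4.552, 4.444 and 4.252, against 3.511, 3.708, 3.467 and 3.689 in air lungs. The groups did not overlap and the difference was 0.81 ± 0.18 (adjusted p = 0.0018; at most 0.0165 without each array in turn). This call too was lost with the RNA quality covariate described below. Its neighbour Col4a1 was called in none of the exposed groups, with differences from -0.51 in COUM to 0.51 in PGBE lungs.

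Npnt, for nephronectin, an integrin ligand of basement membranes, fell in COUM lungs to 3.194, 3.499, 2.975 and 2.792, against 3.291, 3.754 and 4.076 at the lowest, median and highest of 8 corn oil lungs (-0.61 ± 0.13, adjusted p = 0.0162). It lost this call without COUM replicate 3 or 4 or CCO3 replicate 2 (-0.57 to -0.51). Col15a1, for a collagen found at the outer side of basement membranes, fell by less, -0.28 ± 0.06 (adjusted p = 0.00414), but all 4 COUM lungs (-0.679 to -0.427) lay below all 8 corn oil lungs (-0.421 to -0.156). That call held without each array in turn (adjusted p at most 0.023). Col18a1, the source of endostatin, rose in IODO lungs (0.30 ± 0.11, adjusted p = 0.0395), and the groups overlapped. It lost this call without CCO4 replicate 1 or 3 or IODO replicate 2 (0.10 to 0.27).

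Of the beaded-filament collagen VI genes, Col6a1 rose in BBMP and VANP lungs and Col6a2 in TFEL lungs. Col6a1 was 3.202, 3.110, 3.521 and 3.386 in BBMP lungs, against 2.949, 2.540, 2.625 and 2.725 in rodent chow lungs. No exposed lung was as low as a control, and the difference was 0.60 ± 0.16 (adjusted p = 0.0185). In VANP lungs Col6a1 was 3.126, 3.109, 3.363 and 3.141, against 1.741, 2.681 and 2.996 at the lowest, median and highest of 14 air lungs (0.58 ± 0.13, adjusted p = 0.0325). Col6a2 in TFEL lungs was 2.950, 3.333, 3.068 and 3.202, against 2.290, 2.605, 2.598 and 2.372 in air lungs (0.67 ± 0.17, adjusted p = 0.00567).

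Of these, the Col6a2 call held without each array in turn (adjusted p at most 0.0417), but not with the RNA quality covariate described below. Col6a1 lost its BBMP call without BBMP replicate 3 or 4 or FCO2 replicate 2 or 3 (0.52 to 0.57), and its VANP call without any VANP replicate or ACO3 replicate 3 or 4 (0.52 to 0.60). Col14a1, for a fibril-associated collagen, rose in DBET lungs to 1.459, 1.597, 1.170 and 1.301, against 0.718, 0.885 and 1.079 at the lowest, median and highest of 8 corn oil lungs. The groups did not overlap, and the difference was 0.49 ± 0.11 (adjusted p = 0.0112). It lost the call without DBET replicate 2, CCO2 replicate 1 or CCO3 replicate 4 (0.42 to 0.46), and its other 2 probe sets gave 0.18 ± 0.07 and -0.17 ± 0.07.

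Elastin was the elastic fibre gene that moved in most groups. Eln, for the rubber-like core protein of elastic fibres, fell in 7 of 34 groups: MECL-4000 (-1.19), MECL-3000 (-1.02), DBET (-0.92), COUM (-0.91), TCFM (-0.83), NPTH-20 (-0.81) and MACR (-0.63). It rose in none, and its highest difference was 0.60, in TFEA lungs. Of all genes tested, 62 (0.458%) were called in at least 6 groups. The MECL and NPTH groups share their air controls, and COUM and DBET share their corn oil controls, so these falls are not independent of each other.

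At 4000 ppm methylene chloride, Eln was 0.873, 0.946, 1.106 and 1.064, against 1.823 at the lowest, 2.151 at the median and 2.669 at the highest of 14 air lungs. Every exposed lung was below every control, and Eln stood at 0.439 times the control level (-1.19 ± 0.16, adjusted p = 8.96e-05). In DBET lungs Eln was 2.030, 1.132, 1.062 and 0.977, against 1.570, 2.289 and 2.735 at the lowest, median and highest of the corn oil lungs (-0.92 ± 0.18, adjusted p = 0.00757). One DBET lung lay among the controls and the other 3 below them all. In TCFM lungs Eln was 1.406, 1.813, 1.287 and 1.620, against 2.239, 2.555, 2.271 and 2.389 in corn oil lungs, with no overlap (-0.83 ± 0.20, adjusted p = 0.0395). The other probe set of Eln was lower in all 7 groups, by 0.30 in MACR to 0.59 in MECL-4000 lungs.

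With 1 array left out, the MECL-4000 call of Eln held throughout (adjusted p at most 0.00132). The others were lost without MECL-3000 replicate 2 (-0.87), COUM replicate 3 or 4, DBET replicate 4 or CCO3 replicate 1, NPTH-20 replicate 1 or 3, TCFM replicate 1 or 3 or CCO4 replicate 1 or 3, and 6 of the 8 arrays of the MACR contrast. In those fits the differences lay between -0.87 and -0.41.

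Against controls, the called genes of the glycoproteins that surround elastin all rose, in BBMP, IODO and PGBE lungs. Of all genes, 10.4% rose in BBMP, 15.6% in IODO and 0.614% in PGBE lungs. After quantile normalization the calls in BBMP and PGBE lungs were lost. Fbln1 (fibulin 1) and Mfap2 (a microfibril protein) rose in both BBMP (0.49 ± 0.16 and 0.55 ± 0.14) and IODO lungs (0.40 ± 0.16 and 0.43 ± 0.14). Mfap5, another microfibril protein, rose in BBMP lungs (0.40 ± 0.14, adjusted p = 0.0448), and Emilin1, at the interface of elastin and microfibrils, in IODO lungs (0.52 ± 0.14, adjusted p = 0.00996). Levels of Emilin1 were 1.446, 2.204, 1.339 and 1.513 in IODO lungs, against 0.878, 1.325, 0.752 and 1.468 in corn oil lungs, so the groups overlapped. Fbln5, which elastic fibre assembly needs, rose in PGBE lungs to 3.941, 3.928, 4.085 and 3.996, all above the 14 air lungs (3.171, 3.396 and 3.702 at the lowest, median and highest; 0.55 ± 0.12, adjusted p = 0.0445). Each of these 7 calls was lost with some arrays left out: the IODO calls of Fbln1, Mfap2 and Emilin1 without CCO4 replicate 1 or 3 or IODO replicate 2, the BBMP calls without FCO2 replicate 2 or BBMP replicate 3 or 4 among others, and that of Fbln5 without any PGBE replicate, ACO3 replicate 3 or 4 or ACO5 replicate 5 (0.52 to 0.57).

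Crosslinking enzymes gave 1 call. Loxl1, a lysyl oxidase needed to deposit elastin, fell at 20 ppm naphthalene to 1.690, 1.982, 1.863 and 2.053, against 2.421, 2.535 and 2.965 at the lowest, median and highest of 14 air lungs. All 4 exposed lungs were below all controls (-0.69 ± 0.14, adjusted p = 0.0147). The call was lost without NPTH-20 replicate 1 or 3 (-0.68 to -0.62), and a second probe set gave -0.10 ± 0.06. Lox, the founding lysyl oxidase, was never called, with differences from -0.86 in TCFM to 0.36 in TCPN lungs.

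Among the small leucine-rich proteoglycans, Ogn (osteoglycin) and Lum (lumican) rose in N-Methylolacrylamide lungs and fell, with Dcn (decorin) and Aspn (asporin), in iodoform lungs. Postn, for periostin, a matricellular protein of fibroblasts, did the same in both. Ogn was 4.217, 3.585, 4.669 and 3.486 in MACR lungs, against 2.760, 3.067, 2.761 and 2.389 in water lungs. The groups did not overlap, and Ogn stood at 2.37 times the control level (1.25 ± 0.36, adjusted p = 0.0338). Its other probe set gave 1.70 ± 0.49.

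Postn was 3.818, 3.687, 4.111 and 3.186 in MACR lungs, against 2.124, 2.966, 2.239 and 1.887 in water lungs, also without overlap (1.40 ± 0.32, adjusted p = 0.0312). Lum averaged 0.968 ± 0.255 in MACR lungs and 0.392 ± 0.150 in water lungs (SD, n = 4 each), with no overlap (0.58 ± 0.18, adjusted p = 0.0451). The MACR calls were sensitive to single lungs: those of Ogn (then 1.02 to 1.25) and Postn (then 1.26 to 1.38) were lost without MACR replicate 1 or 3 or WCO1 replicate 1, 3 or 4, and that of Lum (then 0.47 to 0.65) without these or MACR replicate 2.

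In IODO lungs Ogn was 1.286, 1.089, 2.348 and 1.539, against 3.817, 1.493, 3.872 and 1.428 in corn oil lungs. The corn oil set CCO4 was split, with replicates 1 and 3 high and replicates 2 and 4 at the level of the exposed lungs, and the difference was -1.09 ± 0.36 (adjusted p = 0.0203). Postn was 1.181, 0.231, 2.242 and 1.763 in IODO lungs, against 3.164, 1.865, 2.902 and 1.991 in corn oil lungs, with the same 2 controls high (-1.13 ± 0.32, adjusted p = 0.0113). The falls of Dcn (-0.66 ± 0.26, adjusted p = 0.0462), Lum (-0.55 ± 0.18, adjusted p = 0.0202) and Aspn (-0.38 ± 0.15, adjusted p = 0.043) came with overlapping groups as well. Each of these 5 calls was lost without CCO4 replicate 1 or 3 or IODO replicate 2, and those of Ogn, Dcn, Lum and Aspn also without IODO replicate 1; without CCO4 replicates in turn Ogn reached -0.68 at the weakest. Sparcl1, for a relative of SPARC, fell without overlap, to 2.964, 2.374, 3.098 and 2.952 in IODO lungs, against 3.524, 3.273, 3.552 and 3.437 in corn oil lungs (-0.60 ± 0.19, adjusted p = 0.0162), a call lost without CCO4 replicate 1 or 3 or IODO replicate 2 (-0.57 to -0.44).

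**Figure D3:**
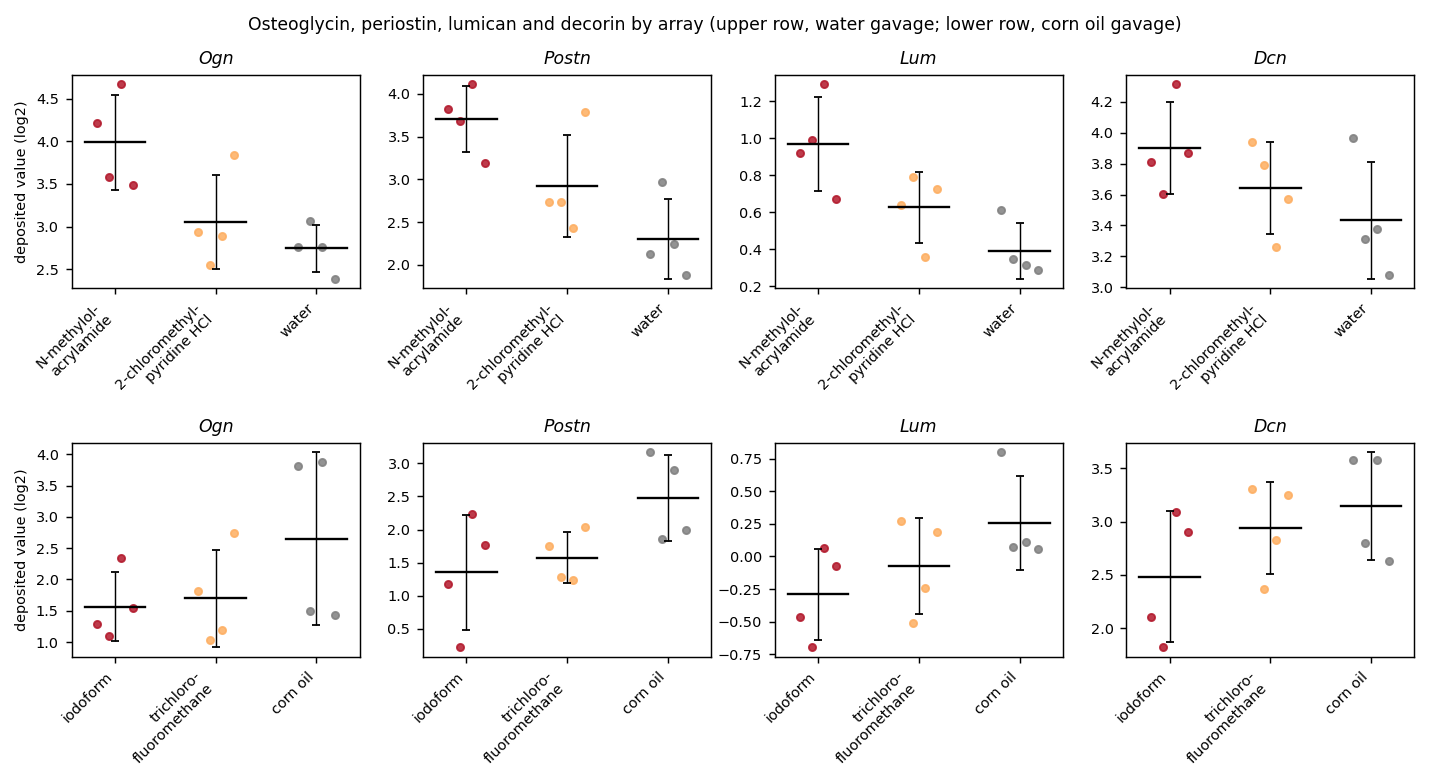
Deposited log2 value of Ogn, Postn, Lum and Dcn in single lungs (dots) with group means (horizontal lines) and SD (vertical bars), 4 lungs per group. In the upper row N-methylolacrylamide lungs lie above water lungs for Ogn, Postn and Lum; in the lower row 2 of the 4 corn oil lungs stand high for Ogn, Postn and Dcn.

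Ogn and Postn also stood high, without a call, in the 3 lowest methylene chloride groups. Postn averaged 3.302 ± 0.214 at 100 ppm, 3.252 ± 0.129 at 500 ppm and 3.339 ± 0.085 at 2000 ppm, against 2.348 ± 0.468 in air lungs, and no exposed lung was as low as an air lung (adjusted p = 0.104, 0.161 and 0.201). Ogn averaged 3.905 ± 0.141 at 100 ppm, 3.879 ± 0.292 at 500 ppm and 4.028 ± 0.394 at 2000 ppm, against 2.955 ± 0.475 in air lungs (SD, n = 5, 4, 4 and 14), with adjusted p of 0.102, 0.149 and 0.177. Set against the mean of the 3 air sets in 1 test, the adjusted p of Ogn was 0.00805, 0.0239 and 0.0192. Such levels were not confined to methylene chloride. In NPTH-0.5 lungs the uncalled differences were 0.71 for Postn and 0.65 for Ogn. Further uncalled differences were 0.92 (Postn in TCPN), 0.62 (Postn in CMPH) and 1.00 (Ogn in DBET). Aspn fell in TFEL lungs (-0.46 ± 0.15, adjusted p = 0.038), to levels from -1.084 to -0.737 against -0.571 to -0.227 in air lungs. It lost this call without TFEL replicate 1, 2 or 3 or ACO1 replicate 2 or 3 (-0.52 to -0.39). The other probe set of Aspn, of nearly the same mean level (-0.58 against -0.56), gave 0.07 ± 0.18 in TFEL lungs, and the mean of both lost the call. Fmod, for fibromodulin, rose in BBMP lungs by a small step (0.24 ± 0.08, adjusted p = 0.0389), lost without BBMP replicate 1, 3 or 4 or FCO2 replicate 2 or 4 (0.20 to 0.24).

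The largest fall among the 56 calls was that of spondin 2. Spon2, for a secreted adhesive glycoprotein that also binds microbes, fell in 7 groups: MECL-4000 (-1.37), NPTH-20 (-1.19), MECL-3000 (-1.10), NPTH-10 (-0.89), NPTH-30 (-0.77), COUM (-0.75) and MALA (-0.68). At 4000 ppm methylene chloride it was -0.032, -0.057, -0.127 and -0.052, against 1.059 at the lowest, 1.309 at the median and 1.489 at the highest of 14 air lungs. Exposed lungs differed little from each other and lay far below every control, at 0.387 times the control level (-1.37 ± 0.15, adjusted p = 1.18e-07). The second probe set of Spon2, a dimmer one, gave -0.28 ± 0.04 there and 0.05 ± 0.05 in COUM lungs.

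In malathion lungs Spon2 was 0.224, 0.628, 0.606 and 0.273, against 1.265, 1.421, 0.787 and 0.962 in rodent chow lungs, with no overlap (-0.68 ± 0.19, adjusted p = 0.0381). In COUM lungs it was 0.718, 0.348, 0.313 and 0.461, against 0.695, 1.152 and 1.764 at the lowest, median and highest of corn oil lungs, where 1 exposed lung overlapped the lowest control (-0.75 ± 0.16, adjusted p = 0.024). With 1 array left out, the Spon2 calls held throughout in MECL-3000 (adjusted p at most 0.00231), MECL-4000 (3.48e-06) and NPTH-20 (2.14e-04). Those of NPTH-10 were lost without its replicate 2 (-0.79), of NPTH-30 without its replicate 4 or ACO4 replicate 3, of COUM without its replicate 3 or 4 or CCO2 replicate 2 or 4, and of MALA without its replicate 1, 3 or 4 or FCO2 replicate 1 or 2, with differences in the last 3 groups from -0.75 to -0.57.

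Tenascin C and fibronectin, glycoproteins of remodelling tissue, rose in vanadium pentoxide lungs. Tnc was 0.683, 0.659, 0.744 and 0.566 in VANP lungs, against -0.286, 0.063 and 0.352 at the lowest, median and highest of 14 air lungs. All exposed lungs lay above all controls (0.60 ± 0.09, adjusted p = 3.58e-05; at most 9.29e-04 without each array in turn). Fn1 was 3.746, 3.893, 3.866 and 3.595 in VANP lungs, against 2.641, 3.026 and 3.466 in air lungs, again without overlap (0.71 ± 0.12, adjusted p = 0.00479). That call was lost without ACO3 replicate 3 (adjusted p = 0.105), with differences from 0.66 to 0.77 over all arrays left out. The second probe sets gave 0.23 ± 0.06 for Tnc and 0.29 ± 0.11 for Fn1.

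Other groups moved the same 2 genes. Tnc fell in COUM lungs, where -0.305, -0.163, -0.503 and -0.275 stood against -0.084, 0.039 and 0.337 at the lowest, median and highest of corn oil lungs (-0.41 ± 0.10, adjusted p = 0.0212). It lost that call without COUM replicate 3 or 4 or CCO3 replicate 2 (-0.42 to -0.34), and its second, dimmer probe set gave -0.02 ± 0.07. Fn1 rose in BBMP lungs to 3.649, 3.513, 3.912 and 3.743, against 3.432, 2.974, 3.181 and 3.279 in rodent chow lungs (0.49 ± 0.15, adjusted p = 0.0292), a call lost without BBMP replicate 3 or 4 or FCO2 replicate 2 or 3 (0.41 to 0.48).

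Smoc2, a calcium-binding relative of SPARC, fell by small amounts in 4 groups. In NAPD lungs it was -0.571, -0.494 and -0.595, against -0.298, -0.031 and -0.288 in rodent chow lungs, with no overlap (-0.35 ± 0.08, adjusted p = 0.00258). It also fell in MECL-2000 (-0.31 ± 0.05, adjusted p = 0.0234), MECL-3000 (-0.29 ± 0.05, adjusted p = 0.0156) and VANP lungs (-0.27 ± 0.05, adjusted p = 0.0179). Arrays were not left out in turn for NAPD and MECL-2000. The MECL-3000 call was lost without its replicate 1 or 2, ACO4 replicate 3 or 4 or ACO3 replicate 4 (-0.29 to -0.27), and the VANP call without its replicate 1, 2 or 4 or the same 3 air arrays (-0.26 to -0.25). The other probe set of Smoc2 gave -0.06 ± 0.04 in VANP lungs. Sparc and Spon1 were called in none of the exposed groups.

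Along the 5 methylene chloride concentrations, 14 members changed, 6 upward and 8 downward, while 12.6% of all genes rose and 8.62% fell. The change is the fitted log2 change from 100 to 4000 ppm on a linear scale, over exposed arrays only. Downward went Ogn (-1.22 ± 0.29, adjusted p = 0.00137), Spon2 (-1.22 ± 0.15, adjusted p = 5.67e-10), Eln (-1.17 ± 0.16, adjusted p = 2.29e-08), Lox (-0.69 ± 0.21, adjusted p = 0.0154), Mfap4 (-0.50 ± 0.16, adjusted p = 0.0209) and Sparcl1 (-0.46 ± 0.15, adjusted p = 0.0216), with Lum and Aspn. Upward went Mfap5 (0.46 ± 0.11, adjusted p = 0.00159), Col4a2 (0.46 ± 0.15, adjusted p = 0.0178), Fbln5, Col6a1, Emilin1 and Col4a1 (0.33 to 0.38). Upward went 15.4% of members, near the 12.6% of all genes, and downward 20.5% against 8.62%. Elastin, its crosslinker Lox and the elastic fibre gene Mfap4 went down along the series. The microfibril gene Mfap5 and the collagen genes Col4a1, Col4a2 and Col6a1 went up. The count was 6 without MECL-4000 replicate 2 and 7 without MECL-4000 replicate 4. On a log10 scale of concentration 6 members changed, and 6 with air lungs added at 0 ppm. After quantile normalization 3 went up and 12 down.

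The levels of Eln show where the change lay. Eln averaged 2.184 ± 0.207 in air lungs, 2.096 ± 0.206 at 100 ppm, 2.090 ± 0.208 at 500 ppm, 1.937 ± 0.347 at 2000 ppm, 1.167 ± 0.373 at 3000 ppm and 0.997 ± 0.107 at 4000 ppm (SD, n = 14, 5, 4, 4, 4 and 4). The first 4 of these lay within their spread of each other, and the last 2 apart from them. Spon2 averaged 1.301 ± 0.152 in air lungs and then 1.094 ± 0.220, 1.117 ± 0.155, 0.848 ± 0.294, 0.204 ± 0.125 and -0.067 ± 0.041 from 100 to 4000 ppm. Ogn averaged 2.955 ± 0.475 in air lungs, 3.905 ± 0.141 at 100 ppm, 3.879 ± 0.292 at 500 ppm, 4.028 ± 0.394 at 2000 ppm, 3.209 ± 0.556 at 3000 ppm and 2.576 ± 0.412 at 4000 ppm, so its fitted fall ran between groups above and near the air level.

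**Figure D4:**
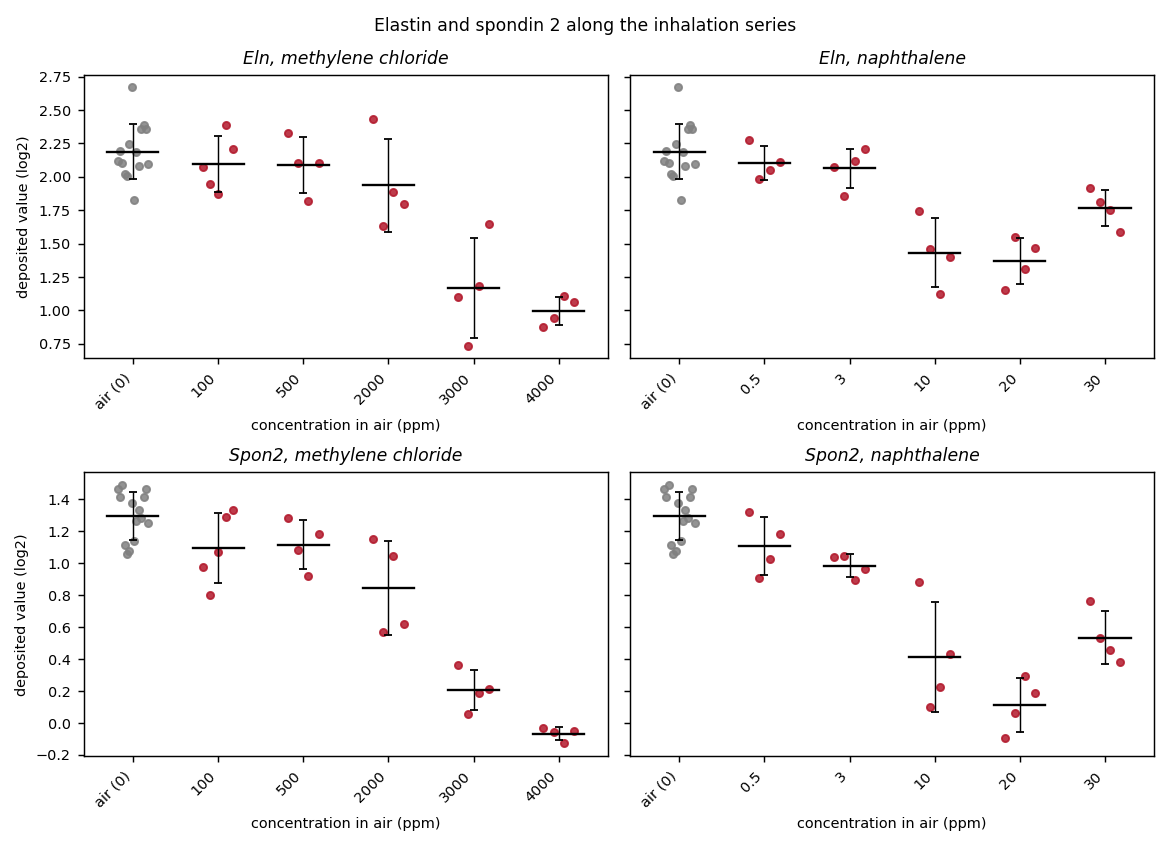
Deposited log2 value of Eln and Spon2 in single lungs (dots) with group means (horizontal lines) and SD (vertical bars) along the methylene chloride and naphthalene concentrations, after the 14 shared air lungs. Both genes are lowest at 4000 ppm methylene chloride, and in the naphthalene series lowest at 20 ppm, with 30 ppm above it.

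Along the naphthalene concentrations 6 members fell and 0 rose, beside 13.2% of all genes that fell and 5.81% that rose. These were Spon2 (-0.69 ± 0.16, adjusted p = 7.99e-04), Loxl1 (-0.47 ± 0.15, adjusted p = 0.0189), Spon1 (-0.43 ± 0.14, adjusted p = 0.018), Col6a3 (-0.43 ± 0.13, adjusted p = 0.00879), Nid1 (-0.40 ± 0.12, adjusted p = 0.0074) and Tnc (-0.27 ± 0.10, adjusted p = 0.0346). Nid1 encodes nidogen, which links laminin to type IV collagen, and Col6a3 a chain of type VI collagen. The levels did not fall evenly: Spon2 averaged 1.110 ± 0.180, 0.986 ± 0.071, 0.411 ± 0.345, 0.113 ± 0.168 and 0.536 ± 0.166 from 0.5 to 30 ppm (SD, n = 4 each), and Eln 2.106 ± 0.126, 2.063 ± 0.148, 1.432 ± 0.256, 1.370 ± 0.175 and 1.768 ± 0.137. Without 1 array at a time the count was 5 to 9. On a log10 scale of concentration 12 members fell, and with air lungs added at 0 ppm 12 fell and 1 rose.

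Chemicals given in the same vehicle and batch were also set against each other, in 27 pairs with p-values adjusted over all genes within each pair. Of the 1053 tests of members 132 (12.5%) were called, against 8.38% of the tests of all genes. The choice of members with earlier results known bears on these shares too. No member was called in any of the 5 pairs of control sets by limma, where 0 to 3 had an unadjusted p under 0.05. Of all genes 0.0296% were called between CCO2 and CCO3, and 0 between the other sets. Pairs that share a group are not independent.

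Benzene and coumarin, given in corn oil at 100 and 200 mg/kg, differed in the most members: 23 were higher in BENZ than in COUM lungs and 0 lower, beside 18.6% of all genes that were higher and 9.55% that were lower. Eln differed by 0.87 ± 0.20, Col3a1 by 0.84 ± 0.17, Loxl1 by 0.83 ± 0.18 and Col5a2 by 0.72 ± 0.13 (adjusted p = 0.00178, 3.12e-04, 6.41e-04 and 5.08e-05). Between COUM and DBET lungs 19 members were lower in COUM and 0 higher (24.4% of all genes were lower and 14.0% higher), led by Ogn (-1.76 ± 0.36, adjusted p = 4.11e-05) and Postn (-1.42 ± 0.32, adjusted p = 2.26e-04). Benzene and 1,2-Dibromoethane differed in 11 members (20.6% of all genes): Eln was 0.88 ± 0.20 higher in BENZ lungs (adjusted p = 0.00109), and Ogn was lower (-1.38 ± 0.36, adjusted p = 0.00332). The doses of the 3 chemicals differ.

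In the air-controlled groups, 15 members differed between NPTH-30 and PGBE lungs (28.8% of all genes), 14 of them lower in NPTH-30, led by Col4a1 (-0.82 ± 0.15, adjusted p = 2.80e-05) and Fbln5 (-0.75 ± 0.15, adjusted p = 9.19e-05). PGBE and VANP lungs differed in 11 members (17.8% of all genes), with Spon1 higher in PGBE (0.61 ± 0.16, adjusted p = 0.00437) and Tnc lower (-0.57 ± 0.11, adjusted p = 8.51e-05). MECL-4000 and VANP lungs differed in 10 members (12.5% of all genes), with Eln lower in MECL-4000 (-1.41 ± 0.20, adjusted p = 1.80e-08) and Emilin1 higher (0.55 ± 0.14, adjusted p = 0.00369). Smaller counts were 7 for MECL-4000 against NPTH-30 (6.58% of all genes), 6 for ETOX against NPTH-30 (8.32%), 6 for NPTH-30 against VANP (9.61%), 5 for ETOX against VANP (9.78%) and 5 for MECL-4000 against PGBE (7.31%). Eln was lower in MECL-4000 than in NPTH-30 lungs by -0.77 ± 0.20 (adjusted p = 0.00676), and the concentrations of these 2 chemicals differ.

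Iodoform and trichlorofluoromethane, both halogenated methanes, differed in 2 members (1.86% of all genes). Eln was 2.617 in IODO and 1.531 in TCFM lungs on average (1.09 ± 0.20, adjusted p = 0.00194), and Spon2 was 1.305 and 0.429 (0.88 ± 0.19, adjusted p = 0.00624), at doses of 93 and 3925 mg/kg. Tetrafluororethane and tetrafluoroethylene were given at 50000 and 1250 ppm: limma called 0 members (1 at an unadjusted p under 0.05) and 0 of all genes, Col1a1 averaged 1.753 in TFEA and 2.013 in TFEL lungs, and Col4a2 4.215 and 4.402. The naphthalene amines NAPD and NEDD were given at the same 2000 ppm, and limma called 0 members between them (3 at an unadjusted p under 0.05) and 1.54% of all genes; for Smoc2 the difference was -0.25 with a 95% interval from -0.40 to -0.09 (adjusted p = 0.103), and for Eln 0.27 with an interval from -0.20 to 0.73.

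Genes that make, bind or respond to matrix, on lists separate from the members, gave these counts where most members were called. In COUM lungs 2 of 20 genes of collagen processing fell, P4ha1 (-0.55 ± 0.14, adjusted p = 0.0223), a prolyl hydroxylase of collagen, and Plod3 (-0.33 ± 0.10, adjusted p = 0.0417), a lysyl hydroxylase. In the same lungs 1 of 11 laminin and basement membrane genes fell, Hspg2 (perlecan, -0.43 ± 0.11, adjusted p = 0.0182), as did 2 of 21 genes of the TGF-beta pathway, Smad7 (-0.53 ± 0.12, adjusted p = 0.0203) and Skil (-0.52 ± 0.13, adjusted p = 0.0417), and 2 of 13 matrix receptors, Itga5 (-0.67 ± 0.11, adjusted p = 0.00157) and Itga8 (-0.47 ± 0.14, adjusted p = 0.0473). The medians of these 4 lists ran from -0.28 to -0.12, against -0.06 over all genes.

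In IODO lungs 5 of 20 processing genes rose and 1 fell, 4 of 21 TGF-beta genes rose and 1 fell, and 2 of 13 receptors rose and 3 fell; Tgfb1 itself rose by 0.46 ± 0.15 (adjusted p = 0.0189) and Eng, a TGF-beta co-receptor of endothelium, by 0.62 ± 0.17 (adjusted p = 0.01). In BBMP lungs 4 of 20 processing genes and 4 of 21 TGF-beta genes rose, with Ccn2, a TGF-beta target, up by 0.78 ± 0.22 (adjusted p = 0.0225) and Bmp1, a procollagen protease, by 0.31 ± 0.09 (adjusted p = 0.0217). These counts stand beside 15.6% of all genes that rose in IODO and 10.4% in BBMP lungs. In VANP lungs, where 4 members were called, Bmp1 rose by 1.82 ± 0.07 (adjusted p = 1.56e-42). Plod2 (-0.993 ± 0.145), Pcolce2 (-0.58 ± 0.12) and P3h2 of the same processing list fell. Of the TGF-beta list, Tgfbi (0.88 ± 0.12), Tgfbr1 and Inhba rose there and Tgfbr3 (-0.50 ± 0.11) fell. Of all genes 3.02% rose and 1.31% fell in VANP lungs.

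Markers of other cell types moved in some of these groups. In COUM lungs 3 of 14 smooth muscle and pericyte markers fell (mean level of the list 0.797 to 1.015, against 0.970 to 1.456 in corn oil lungs), 3 of 12 endothelial markers fell (2.565 to 3.086 against 2.882 to 3.645), and limma called 0 of 12 fibroblast markers, 6 of which had an unadjusted p under 0.05 (1.370 to 1.779 against 1.530 to 2.126). Tagln (-0.57 ± 0.15), Cnn1 (-0.67 ± 0.20) and Des (-0.58 ± 0.13), genes of contractile cells, were the first 3, and 2 of 5 cartilage markers rose, Chad by 0.93 ± 0.16; 1.63% of all genes fell and 4.06% rose. In DBET lungs, where Eln fell and Col14a1 rose, 5 of 6 club cell markers rose (5.884 to 6.033 against 4.949 to 5.664), led by Gabrp (1.10 ± 0.16), and 2 of 6 ciliated cell markers rose (1.961 to 2.273 against 1.404 to 1.860), beside 2.31% of all genes. In VANP lungs 3 of 7 macrophage markers rose (2.283 to 2.471 against 1.683 to 2.319), 3 of 7 alveolar type 2 markers rose (5.746 to 5.968 against 5.041 to 5.535) and 2 of 12 fibroblast markers fell (1.295 to 1.499 against 1.618 to 1.903), as did 2 of 14 smooth muscle markers (0.815 to 1.041 against 1.023 to 1.517), beside 3.02% of all genes that rose and 1.31% that fell. The naphthalene trend held 6 falls among 14 smooth muscle markers, 4 among 12 endothelial markers (Kdr, Tek, Emcn and Egfl7) and 3 among 6 club cell markers, and 6 rises among 7 alveolar type 2 markers, where 13.2% of all genes fell and 5.81% rose. Of 12 fibroblast markers in that trend, Pdgfrb (-0.77 ± 0.18) and Tbx4 (-0.37 ± 0.11) fell and Tbx5 (0.50 ± 0.08) rose. The part of these cell types in the members' differences was not tested.

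RNA quality differed between some groups as well. The beta-actin 3′ minus 5′ value, higher where RNA is more degraded, was 0.347 ± 0.099 in IODO and 0.691 ± 0.168 in corn oil lungs (SD, n = 4 each), 0.218 ± 0.028 in TFEL and 0.599 ± 0.148 in air lungs, 0.255 ± 0.044 in NAPD and 0.557 ± 0.076 in rodent chow lungs, and 0.319 ± 0.029 in BBMP and 0.521 ± 0.072 in rodent chow lungs. It was 0.713 ± 0.050 in COUM and 0.696 ± 0.069 in corn oil lungs, and 0.937 ± 0.408 in DBET lungs against the same corn oil value. With this value as a covariate, chosen after seeing the data, limma kept 0 of the 10 IODO calls, 0 of the 4 TFEL calls and 1 of the 6 BBMP calls (9 members in IODO and 6 in TFEL had an unadjusted p under 0.05), while none of the 9 COUM calls, and none of the Eln and Spon2 calls outside MACR, was lost, nor was the NAPD call of Smoc2. Within groups the correlation with this value over 191 arrays ran from -0.51 for Fbln1 and -0.44 for Emilin1 to 0.29 for Ogn and 0.38 for Aspn. Quantile normalization within array batches also brought the BBMP count to 0, with 6 members at an unadjusted p under 0.05.

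Lungs of 1 group differed among themselves in a patterned way. After the group means were taken out, 565 of the 741 pairs of members correlated above 0 over the 191 arrays and 176 below, with a median of 0.35. These are descriptions over arrays that share RNA quality and array effects. The closest pair was Col6a1 and Col6a2 (r = 0.94), whose chains assemble into the same molecule, followed by Col6a1 with Col4a2 (0.87). The neighbours Col4a1 and Col4a2 gave 0.86, Aspn and Ogn 0.82, Col3a1 and Col5a2 0.78, and Dcn and Lum 0.76. Fibrillar collagens had a median of 0.69 among themselves and 0.49 with the other members.

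The small leucine-rich proteoglycans did not form such a block, with a median of -0.01. Ogn went with Aspn and Postn (0.82 for each), and both Ogn and Aspn correlated below 0 with each of Col1a1, Col1a2, Col3a1, Col5a1, Col5a2, Col4a1, Col4a2, Col6a1 and Col6a2, at -0.04 to -0.45. With Col14a1 they correlated at 0.13 (Ogn) and 0.07 (Aspn). The lowest values were -0.52 for Postn and Smoc2 and -0.48 for Loxl1 and Postn, while Bgn (biglycan) went with Spon1 (0.86). The 2 lysyl oxidases also parted, with r = -0.37 between Lox and Loxl1. Eln went with Loxl1 (0.69) and Spon2 (0.63), and Spon2 with Loxl1 (0.67). Outside the members, the genes most like the mean of Col1a1, Col1a2 and Col3a1 were Mmp2 (0.87), for a gelatin-digesting protease, Agrn (0.79), for a basement membrane proteoglycan, Nucb1 (0.79), Fndc1 (0.78) and Lrp1 (0.76), then Nfix, Extl3, Gtf3c1, Plxna1 and Scarf2 (0.75 to 0.76).

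**Figure D5:**
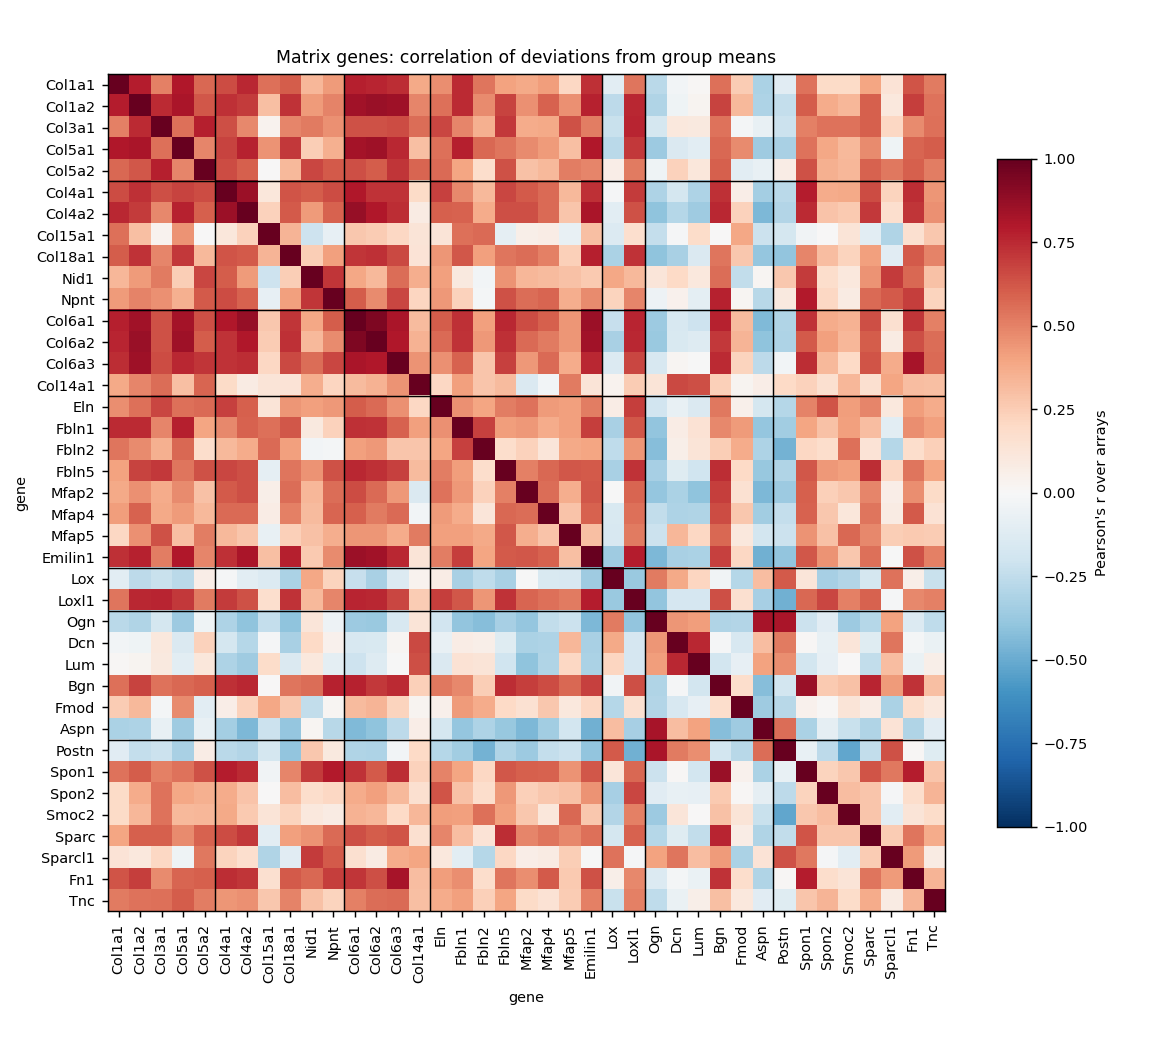
Pearson's r of every pair of the 39 tested matrix genes over 191 arrays, after subtraction of the group means; black lines separate roles. Positive blocks join the collagens, and Ogn and Aspn lie below 0 against each tested collagen gene except Col14a1.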

How the data were processed

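Whole lung RNA was biotin-labelled and hybridised to Affymetrix Mouse 430_2 arrays by the maker's standard protocol, per the labels' protocols. The deposited table holds 45101 probe sets on 191 arrays on a logarithmic scale, read as log2; the base, the summary method and the normalization are not given in the sources used here. Values ran from -2.33 to 8.14, and array means from -0.00269 to 0.00334, so each array is centred and a change common to all genes cannot be seen. Arrays carry no count of molecules, and their number limits the precision.

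Symbols came from the platform annotation: 34958 probe sets had 1 symbol, 932 several and 9211 none, and 34754 matched a current gene. RNA integrity numbers ran from 6.1 to 9.6, were under 7 on 2 arrays and were not given for 32. Each array has its own animal label, and nothing else says how animals were assigned.

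limma 3.58.1 in R 4.3.3 fitted 1 mean per group over 191 arrays, with Benjamini-Hochberg adjustment over the 13524 genes, and the script was tested on simulated data. Differences are set against the equally weighted mean of the control sets. Comparisons within a vehicle and batch share control arrays. Genes were named by rule: up to 8 called members per contrast, up to 4 called genes of each other list where at least 5 members were called, and the 10 other genes most correlated with the type I and III collagens. Further called members, per-array values beyond 10 members, and Ogn, Postn and Col1a1 short of a call were added after their values were seen. So were the list genes named in DBET and VANP lungs. The members and lists were chosen with earlier results of these data known. Alternatives changed the normalization, filter, probe set rule, arrays in the fit, control rule, concentration scale and left-out arrays, and added beta-actin 3′ minus 5′ as a covariate.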

Additional observations from a re-analysis of the deposited data

Results flagged for a closer look

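In 5 of 131 groups of 4 or 5 arrays tested for the called genes, 1 lung stood apart from the rest by more than Dixon's 95% critical value; chance gives about 1 in 20. Eln in the first DBET lung was 2.030, against 0.977 to 1.132 in the other 3. Col6a1 in the third VANP lung was 3.363, against 3.109 to 3.141. Mfap5 in the first lung of the chow set FCO2 was 2.052, against 1.605 to 1.635. Lum in the first lung of the corn oil set CCO4 was 0.797, against 0.059 to 0.112. Col1a2 in the second lung of the air set ACO5 was 3.347, against 3.070 to 3.146.

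The test between chemicals of the same vehicle and batch differed in at least 5 members for 11 pairs. The counts, with the share of all genes in brackets, were 23 for BENZ against COUM (28.2%), 19 for COUM against DBET (38.4%) and 11 for BENZ against DBET (20.6%). In the air batch they were 15 for NPTH-30 against PGBE (28.8%), 11 for PGBE against VANP (17.8%) and 10 for MECL-4000 against VANP (12.5%). There were 7 for MECL-4000 against NPTH-30 (6.58%), 6 for ETOX against NPTH-30 (8.32%) and 6 for NPTH-30 against VANP (9.61%). ETOX against VANP gave 5 (9.78%) and MECL-4000 against PGBE 5 (7.31%). The count for ETOX against VANP, 12.8% of members, was near its background.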

How the results depend on the processing

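None of the 56 calls changed sign in any of the settings run. Of them, 54 held without arrays whose RNA integrity number was under 7, 48 without a filter, 45 with the mean of a gene's probe sets and 45 after quantile normalization. With the beta-actin covariate, which was chosen after seeing the data, 35 held, and 23 with the contrast's own arrays alone. All 56 held in 1 test against the mean of the control sets, but that test could hardly lose a call. For groups with 1 control set it is the same test, and for the others it is less strict. The causes of the changes were not tested. No paired analysis was possible because the replicate numbers follow accession order and pair no animals. Leave-one-out fits covered 15 groups and 98 arrays; NAPD and MECL-2000 were not covered.

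The counts below are of members alone. No share of all genes under the same setting is given, so they do not tell a change in the members from one in all genes. In 1 test against the mean of the control sets, the count of members called was 19 in COUM, 4 in DBET, 5 in MECL-100, 5 in MECL-500, 4 in MECL-2000, 4 in MECL-4000, 1 in NPTH-0.5, 10 in NPTH-10, 10 in NPTH-20, 2 in NPTH-30, 12 in PGBE, 4 in TCPN and 9 in VANP. With the beta-actin covariate it was 1 in ABDQ, 1 in BBMP, 1 in BFUR, 0 in IODO (9 at an unadjusted p under 0.05 in limma), 2 in MACR, 5 in NPTH-10, 7 in NPTH-20, 0 in TFEL (6 at an unadjusted p under 0.05) and 11 for the NPTH trend, and the median difference was -0.155 in NAPD, 0.016 in NEDD and 0.083 in TFEL.

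After quantile normalization the count was 2 in ABDQ, 0 in BBMP (6 at an unadjusted p under 0.05 in limma), 9 in BFUR, 10 in MACR, 4 in MECL-100, 3 in MECL-500, 4 in NPTH-10, 0 in PGBE (14 at an unadjusted p under 0.05), 5 in TCFM, 3 in TFEA and 7 in TFEL. The median difference was then 0.053 in BBMP, 0.113 in DIAZ, 0.017 in NAAC, 0.074 in NEDD, -0.145 in NPTH-20, 0.029 in PCNB, -0.049 in TCPN and 0.108 in TFEL. That scaling moved the median of all genes by -0.116 in NAAC and -0.119 in TCPN. With the mean of all probe sets the count was 1 in BFUR, 1 in DBET, 1 in NPTH-10, 3 in PGBE, 0 in TCFM (11 at an unadjusted p under 0.05 in limma) and 3 in TCPN, and the median 0.127 in BBMP, 0.146 in DIAZ and -0.142 in NPTH-20.

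Without a filter the count was 6 in IODO, 2 in MACR and 1 in TCPN. Without arrays whose RNA integrity number was under 7 it was 1 in ABDQ, 1 in BFUR, 1 in NPTH-10 and 2 in PGBE. With the contrast's own arrays alone, a fit with fewer residual degrees of freedom, it was 12 in BBMP, 3 in NAAC, 7 in TFEL and 16 for the NPTH trend, and 0 in COUM, DBET, IODO, MACR, MECL-2000 and NAPD, where 19, 7, 4, 13, 7 and 4 members had an unadjusted p under 0.05 in limma. On a log10 scale of concentration 6 members changed in the MECL series and 12 in the NPTH series, and with controls at 0 ppm 6 and 13.

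With 1 array left out at a time, the count ran from 0 to 10 in BBMP, 3 to 16 in COUM, 1 to 2 in DBET, 0 to 13 in IODO, 0 to 12 in MACR, 0 to 1 in MALA, 1 to 3 in MECL-3000, 0 to 3 in NPTH-10, 1 to 4 in NPTH-20, 0 to 1 in NPTH-30, 0 to 2 in PGBE, 0 to 5 in TCFM, 2 to 5 in VANP and 6 to 14 for the MECL trend. The median difference ran from -0.182 to -0.008 in MACR and from 0.111 to 0.203 in TFEL.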
